A study of Mus musculus with 6 samples.

Results

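The miR-15 and miR-16 family was followed in small RNA sequencing of extracellular vesicles, small lipid-enclosed packages shed by cells. Its members were taken by name as mmu-miR-16-5p, mmu-miR-15a-5p, mmu-miR-15b-5p and mmu-miR-195a-5p (written below without the mouse prefix), which are 4 of the 1976 mature miRNAs in the deposited table. The vesicles, which the labels call exosomes, came from primary hepatocytes of wild-type C57BL/6J mice. There were 2 groups of 3 libraries, with palmitic acid at 600 µM in 1 group and 0 µM, the control, in the other. Palmitic acid, a saturated fatty acid, is a common means of loading hepatocytes with lipid in culture. The labels give no age, sex or treatment time, and leave unsaid whether a group's 3 libraries stem from different animals or cultures. Each p-value is therefore set against library-to-library spread, part or all of which may be technical.

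A miRNA guides a silencing complex to transcripts that pair with its seed, the bases near its 5′ end. The miR-15 and miR-16 family is known for restraining the cell cycle and cell survival, with cyclin and Bcl2 transcripts among its targets. miR-16-5p is abundant in blood cells and body fluids and is often used as the reference against which other miRNAs are scaled in PCR assays of serum or vesicles. Red cells hold much of it beside miR-451a, so lysed red cells are a known source of it in blood samples.

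The mature sequences, from RefSeq on GRCm38.p6, are shown with bases 2 to 8, the seed, in capitals, because the members share the seed and differ after it.
miR-16-5p: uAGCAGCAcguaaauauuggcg
miR-15a-5p: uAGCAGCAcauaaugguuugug
miR-15b-5p: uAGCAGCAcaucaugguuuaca
miR-195a-5p: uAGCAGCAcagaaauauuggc
miR-322-5p: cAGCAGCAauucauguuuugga
miR-497a-5p: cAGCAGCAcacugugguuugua
The last 2 are relatives with the same seed that also had reads. All 4 members share their first 9 bases. miR-195a-5p matches miR-16-5p at 19 of 21 positions, with the differences G10A and U11G counted from the 5′ end, the miR-16-5p base first. miR-15a-5p and miR-15b-5p match each other at 18 of 22 positions and match miR-16-5p at 16 and 14 of 22. Reads of members this close could be assigned to the wrong member, and the counting rule is not given in the sources used here.

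miR-16-5p is made from 2 hairpins with the same mature sequence. Mir16-1 lies on chromosome 14 (GRCm38, 61631880 to 61631972, minus strand) in an exon of a Dleu2 transcript, a long non-coding RNA, beside Mir15a (61632027 to 61632110) in a Dleu2 intron. Mir16-2 lies on chromosome 3 (69009902 to 69009996, plus strand) in an intron of Smc4, which encodes a condensin subunit, beside Mir15b (69009772 to 69009835). Mir195a lies on chromosome 11 (70235042 to 70235135, plus strand) beside Mir497 (70234717 to 70234800), inside no annotated host gene of GENCODE M21. The mature miR-322-5p lies on chromosome X (53054306 to 53054327, minus strand). Reads of miR-16-5p cannot be assigned to either of its hairpins.

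The deposited values are log2(adjusted count + 1), and whole reads were recovered from them. Recovered totals were 613417 to 799002 reads in palmitic acid libraries and 95254 to 657786 in controls. The miR-122 locus, which holds a hepatocyte marker, took 11.75% to 15.3% of palmitic acid reads and 69.2% to 87.7% of control reads. That left 534246 to 676702 reads for all other miRNAs with palmitic acid and 29342 to 80756 in controls. Levels are therefore given as reads per 1000000 of all reads (RPM) and, for the main values, also as RPM of reads outside the miR-122 locus. In pooled vesicle RNA, more copies of a miRNA per vesicle, more vesicles that carry it and less of other RNAs cannot be told apart. As a check for libraries deposited more than once, replicates of a group were compared with counting error alone, which gave a chi-square per degree of freedom of 79.0 to 257 among palmitic acid libraries and 91.4 to 478 among controls.

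miR-16-5p was the most abundant member and the only one of the 4 with reads in all 6 libraries. Palmitic acid replicates 1, 2 and 3 held 400, 759 and 387 reads of it, and control replicates 1, 2 and 3 held 32, 18 and 3. Its deposited log2 values were 7.62, 8.06 and 7.85 with palmitic acid and 6.65, 5.65 and 2.95 in controls. The palmitic acid values lay close together, the control values were spread over a 14.8-fold range of adjusted counts, and the groups did not overlap. Of all 181 tested miRNAs, 48.6% likewise had every palmitic acid library above every control library.

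The miR-16-5p level rose with palmitic acid, by 2.76 in deposited log2 units (SE 0.96, 95% interval 0.54 to 4.97, limma adjusted p = 0.0386). It was the only member of the 4 that passed the filter on low values, which asked for 3 or more libraries with an adjusted count of 10 or more, and 2 control libraries reached that count. This is a 6.76-fold difference on a scale where the median tested miRNA also rose, by 1.94, and 42.0% of tested miRNAs were called higher. Relative to that median miR-16-5p stood at 0.82. It ranked 70 of 181 by log2 change and 98 by p.

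The call was lost in 8 of 16 other ways of fitting the same data, with adjusted p from 0.0130 to 0.186. Leaving out any palmitic acid library lost it (0.0867, 0.126 and 0.121 for replicates 1, 2 and 3), as did leaving out control replicate 2 (0.0511). Without control replicate 3, the library with 3 reads, the difference was 1.69 (adjusted p = 0.0297), and without control replicate 1 it was 3.54 (adjusted p = 0.0130).

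As a share of all reads, miR-16-5p had 501, 996 and 631 RPM in palmitic acid replicates 1, 2 and 3, against 336, 27.4 and 11.9 RPM in control replicates 1, 2 and 3. The means were 709 ± 257 and 125 ± 183 RPM (SD, n = 3 each), with p = 0.1 by an exact permutation test (two-sided), which is the lowest value possible for 3 libraries against 3. Every palmitic acid library lay above every control library, as in 55.8% of tested miRNAs on this scale. Adjusted over the 4 members' shares, the p was 0.133.

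Outside the miR-122 locus the groups overlapped. miR-16-5p then had 591, 1129 and 724 RPM with palmitic acid, against 1091, 223 and 57.0 RPM in controls. Control replicate 1 lay above palmitic acid replicates 1 and 3, and the other 2 controls lay below all palmitic acid libraries. The means were 815 ± 280 and 457 ± 555 RPM (SD, n = 3 each, exact permutation p = 0.3, 0.4 adjusted over the 4 members), a 1.78-fold difference against 5.67-fold in RPM of all reads. With log2 values on this scale the limma difference was 1.61 (adjusted p = 0.186, with 32.6% of tested miRNAs called higher).

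**Figure D1:**
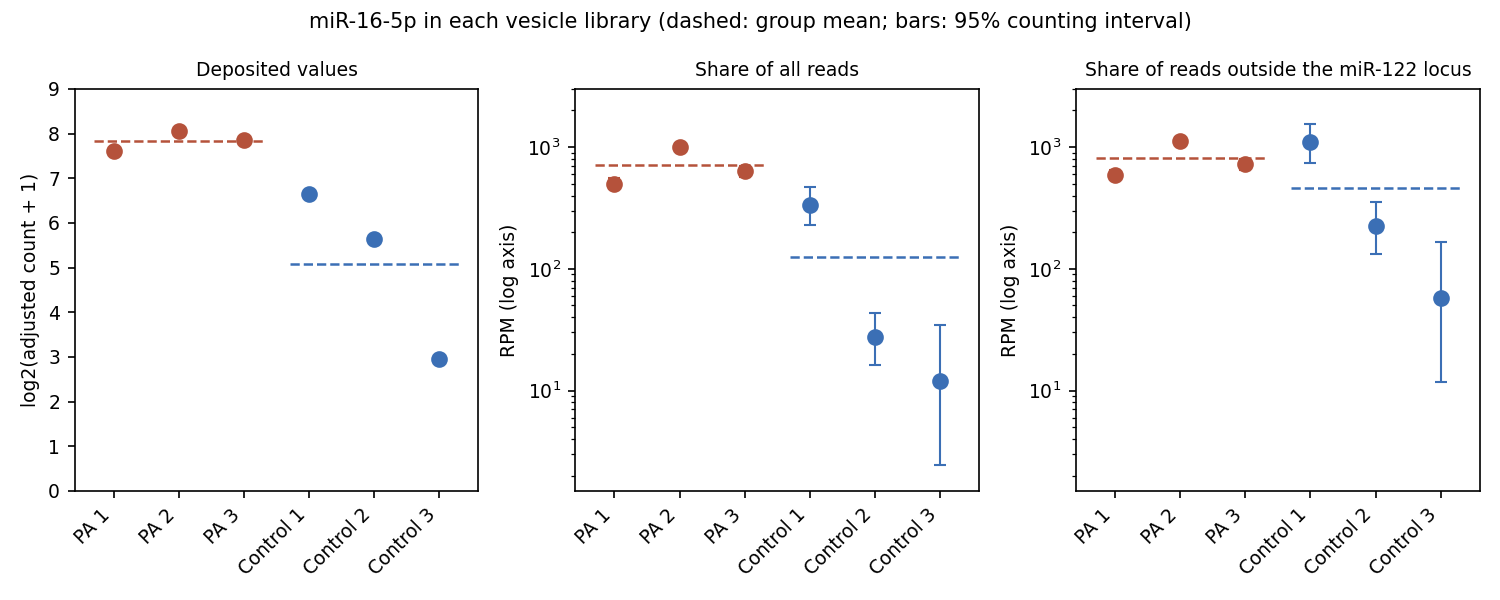
miR-16-5p in each of the 6 libraries as the deposited log2(adjusted count + 1), as RPM of all reads and as RPM of reads outside the miR-122 locus, with group means as dashed lines. The RPM panels have log axes and 95% Clopper-Pearson intervals as bars. The 3 palmitic acid points lie above the controls in the first 2 panels, and in the third control replicate 1, at 1091 RPM, stands among the palmitic acid libraries.

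Few reads stood behind the control values. The 95% Clopper-Pearson interval of the level in RPM of all reads was 2.45 to 34.7 RPM in control replicate 3, 16.2 to 43.3 in control replicate 2 and 230 to 474 in control replicate 1. With palmitic acid the intervals were 453 to 552, 927 to 1070 and 570 to 697 RPM in replicates 1, 2 and 3. In control replicate 3 the exact Poisson interval of 3 reads, 0.619 to 8.77, spans 14.2-fold, while those of the palmitic acid libraries span 1.15-fold to 1.22-fold. These intervals hold counting error alone, because PCR copies of a molecule are not independent.

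miR-15a-5p, made beside miR-16-1 on chromosome 14, was read in palmitic acid libraries and in no control. It had 68, 144 and 13 reads in palmitic acid replicates 1, 2 and 3 and 0 reads in each control. Reads in all 3 palmitic acid libraries and in no control were found for 11.9% of the 950 miRNAs with any read. In RPM this was 85.1, 189 and 21.2 with palmitic acid, with replicate 3 the lowest, and the exact permutation test gave p = 0.1 (0.133 adjusted over the 4 members). With 3 reads per library as the floor, the 3 controls allow 31.5, 4.56 and 11.9 RPM, and the palmitic acid mean of 98.4 ± 84.7 RPM (SD, n = 3) was at least 6.16-fold higher than their mean of 15.98 RPM. Outside the miR-122 locus the floors were 102, 37.2 and 57.0 RPM, and the palmitic acid mean of 113 ± 95.5 RPM (SD, n = 3) was at least 1.73-fold higher than their mean of 65.5 RPM. Palmitic acid replicate 3 lay under the floor of control replicate 1 on both scales, and palmitic acid replicate 1, at 100.5 RPM, lay under it outside that locus.

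The depth left for miR-15a-5p in controls was small. Scaled to the 29342 reads that control replicate 1 held outside the miR-122 locus, the palmitic acid libraries would hold 2.95, 6.28 and 0.714 reads of it. The values of palmitic acid replicates 1 and 3 lie under the floor of 3 reads, that of replicate 1 only just. By that floor, absence of miR-15a-5p from a control of that depth is not distinguishable from its presence at the level of either library. miR-15a-5p did not pass the main filter, as 2 libraries reached an adjusted count of 10. Its deposited control values of 0.42, 0.35 and 0.25 stand for 0 reads and were set by the adjustment. A log2 difference of 4.29 on the deposited scale depends on these values and is no bound. With no filter, limma called that difference (SE 0.75, adjusted p = 0.0220, with 8.32% of 1058 miRNAs called higher). It passed a filter on a mean adjusted count of at least 10, through the palmitic acid libraries alone. There limma called it too (SE 0.82, adjusted p = 0.00413, with 74 of 196 miRNAs called higher). In both fits every control stood at 0 reads, so the SE and adjusted p hold no measured control spread. These calls thus add no support.

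miR-15b-5p, made beside miR-16-2 on chromosome 3, was also read with palmitic acid alone, at 19, 4 and 7 reads in replicates 1, 2 and 3 against 0 in each control. Its mean of 13.5 ± 9.44 RPM (SD, n = 3, exact permutation p = 0.1, 0.133 adjusted) lay under the mean control floor of 15.98 RPM, so no fold is given. Outside the miR-122 locus its mean of 15.7 ± 11.3 RPM (SD, n = 3) also lay under the mean floor, 65.5 RPM, and a difference was not detectable at this depth. At the depth of control replicate 1 outside that locus, its expected reads were 0.824, 0.175 and 0.385. It passed no filter, and with no filter its difference of 2.07 was not called (SE 0.67, adjusted p = 0.103).

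miR-195a-5p, from the Mir195a and Mir497 cluster, had 1, 0 and 0 reads in palmitic acid replicates 1, 2 and 3, against 5, 0 and 0 in control replicates 1, 2 and 3. The groups overlapped at 0 and the exact permutation test gave p = 1. A count of 0 allowed up to 3.94 and 4.89 RPM in palmitic acid replicates 2 and 3, and up to 4.56 and 11.9 RPM in control replicates 2 and 3. The 5 reads in control replicate 1 correspond to 52.5 RPM (95% Clopper-Pearson interval 17.0 to 122), in the library that also held the most miR-16-5p among controls. As miR-195a-5p differs from miR-16-5p at 2 of 21 positions, a wrong assignment between these members cannot be told apart from reads of miR-195a-5p itself.

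miR-16-5p made up most of the reads found to carry the seed. The seed was looked up for the 1677 of 1976 table rows with a RefSeq mature sequence and not for the others. Of 10 rows found with that seed 7 had a read, and miR-16-5p held 80.5%, 82.8% and 95.1% of their reads in palmitic acid replicates 1, 2 and 3. It held 32 of 37, 18 of 18 and 3 of 3 such reads in control replicates 1, 2 and 3. The other relatives were near the limit of detection: miR-322-5p, the mouse relative of human miR-424, had 2, 10 and 0 reads with palmitic acid, miR-497a-5p had 6, 0 and 0, and miR-6342 had 1, 0 and 0, with 0 reads in every control. miR-195b, miR-6353 and miR-6419 had no read.

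The balance between miR-15a-5p and miR-16-5p differed among the palmitic acid libraries. Of reads of the pair, miR-15a-5p held 14.5% (95% Clopper-Pearson interval 11.5 to 18.1) and 15.95% (13.6 to 18.5) in palmitic acid replicates 1 and 2 and 3.25% (1.74 to 5.49) in replicate 3. It held 0 of 32, 0 of 18 and 0 of 3 reads in control replicates 1, 2 and 3, which allows up to 9.38%, 16.7% and 100%. The limit of control replicate 1 lies below the shares of palmitic acid replicates 1 and 2, and the limits of the other 2 controls lie above all palmitic acid shares. miR-15b-5p held 4.53%, 0.524% and 1.78% of reads of its pair with miR-16-5p in palmitic acid replicates 1, 2 and 3, and 0% in each control. In exact permutation tests added after seeing the data, the pair shares of miR-15a-5p and miR-15b-5p each gave p = 0.1 and that of miR-195a-5p p = 1 (0.15, 0.15 and 1 adjusted over the 3 pairs). No log2 ratio between members was tested, because no pair had reads of both members in every library.

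Opposite arms tell the hairpins apart. miR-16-1-3p, the other arm of the chromosome 14 hairpin, had 20, 7 and 5 reads in palmitic acid replicates 1, 2 and 3, and miR-16-2-3p, from chromosome 3, had 0, 0 and 3. The arms and members unique to the chromosome 14 pair (miR-15a-5p, miR-15a-3p and miR-16-1-3p) summed to 91, 151 and 18 reads with palmitic acid. Those of the chromosome 3 pair (miR-15b-5p, miR-15b-3p and miR-16-2-3p) summed to 19, 9 and 24. The chromosome 14 sum was the larger in palmitic acid replicates 1 and 2 and the smaller in replicate 3, and controls had 0 reads of either set. These sums do not say from which hairpin miR-16-5p itself was made.

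**Figure D2:**
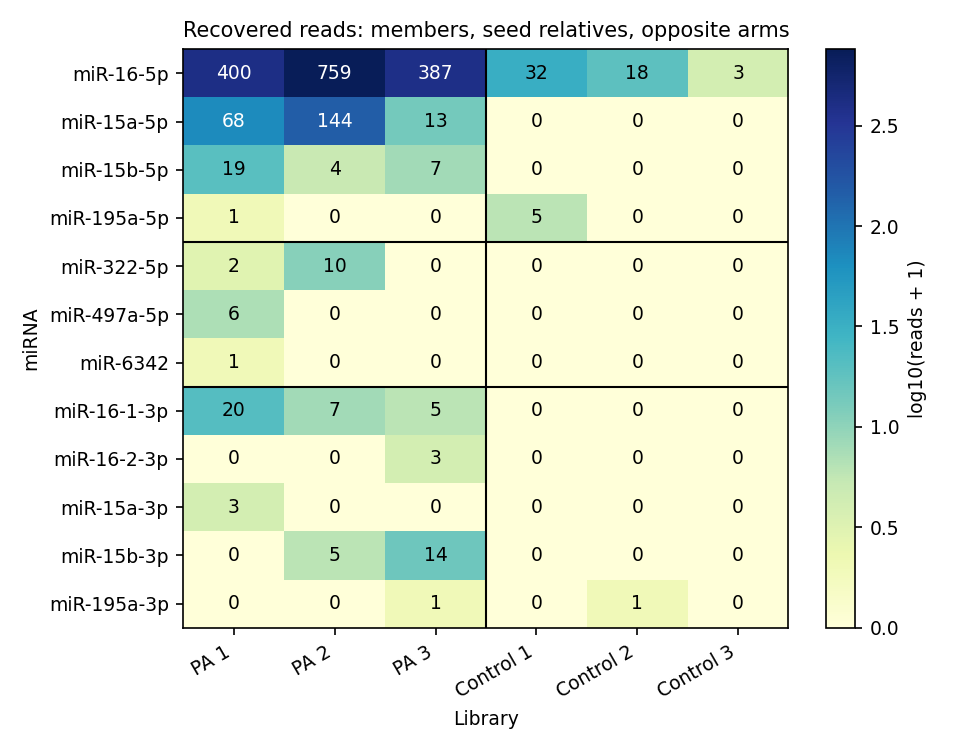
Recovered reads of the 4 members, 3 relatives with the same seed and 5 opposite arms (rows) in the 6 libraries (columns), with colour as log10(reads + 1). In control libraries reads stand for miR-16-5p at 32, 18 and 3, for miR-195a-5p at 5 and for miR-195a-3p at 1, and all other control cells are 0.

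Markers of red cells were highest in control replicate 1, the control that also held the most miR-16-5p. So were the immune and platelet, the stellate and fibroblast and the striated muscle lists, in RPM of all reads and outside the miR-122 locus. The 5 erythroid markers (miR-451a, miR-486a-5p, miR-486b-5p, miR-144-3p and miR-144-5p), of which 4 had a read and miR-144-3p was at 0 in all libraries, summed to 57.6, 167 and 29.3 RPM in palmitic acid replicates 1, 2 and 3. In control replicates 1, 2 and 3 they summed to 6320, 39.5 and 345 RPM. Outside the miR-122 locus the sums were 68.0, 189 and 33.7 RPM with palmitic acid and 20520, 322 and 1654 RPM in controls, so every control lay above every palmitic acid library on that scale. miR-451a alone had 40, 115 and 13 reads with palmitic acid and 486, 21 and 29 in controls. Palmitic acid replicate 2 held the most miR-451a, the most miR-16-5p and the largest immune and platelet sum of its group. Control replicate 3 held more miR-451a than control replicate 2 (29 against 21 reads) but less miR-16-5p (3 against 18 reads). The 5 immune and platelet markers, each with a read, summed to 83.9, 207 and 52.2 RPM with palmitic acid and 252, 1.52 and 43.6 RPM in controls, and the groups overlapped outside the locus too, at 99.01, 235 and 59.9 against 818, 12.4 and 209 RPM. All 5 hepatocyte markers on the list had reads in these libraries labelled as hepatocyte vesicles, and they did not move together. Relative to reads outside the miR-122 locus, miR-101b-3p had 2257 to 5925 RPM with palmitic acid and 133 to 375 in controls. miR-194-5p had 1868 to 5499 RPM with palmitic acid and 6293 to 14040 in controls. The groups overlapped for miR-192-5p and miR-148a-3p, and miR-122-5p belongs to the locus itself. Outside the miR-122 locus, 2 endothelial markers summed to 4420 to 5616 RPM with palmitic acid and 7046 to 16410 in controls, against 3743 to 4956 and 865 to 3420 in RPM of all reads, so their order turned with the scale. The 5 stellate and fibroblast markers summed to 556 to 754 RPM with palmitic acid and 1275 to 7021 in controls outside the locus, and overlapped in RPM of all reads at 491 to 638 and 157 to 2163. The 3 striated muscle markers, of which miR-133a-3p was at 0, summed to 29.8 to 59.1 and 780 to 7668 RPM outside the locus, and to 26.3 to 50.1 and 95.8 to 2362 in RPM of all reads. The part of red or other cells in the miR-16-5p level was not tested.

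How far miR-16-5p could serve as a reference was described by its spread. Its SD over the 6 deposited log2 values was 1.94, close to the median of 1.96 over the 181 tested miRNAs, and it ranked 89 from the smallest. Its SD was 0.22 among palmitic acid libraries, where the median miRNA had 0.45, and 1.92 among controls, where the median was 1.07 and it ranked 142 of 181. The low spread among palmitic acid libraries depends on the scale. With log2 values of RPM of all reads its SD there was 0.50 against a median of 0.49. Outside the miR-122 locus it was 0.48 against 0.46. Over all 6 libraries its level spanned 83.8-fold in RPM of all reads and 19.8-fold outside the miR-122 locus. Without control replicate 3 the SD over libraries was 1.0, and with 1 of the other libraries left out it was between 1.99 and 2.17.

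A measure that the scaling of libraries hardly changes is the mean SD of the log2 ratio to every other tested miRNA, as in the geNorm method, where a smaller value means a steadier miRNA. It was 2.17 for miR-16-5p, rank 59 of 181 (rank 56 in RPM of all reads), against a median of 2.38 and a range of 1.81 to 4.79. The miRNAs with the smallest SD over the 6 deposited values were miR-126b-5p at 0.21, miR-126a-3p at 0.36, let-7e-5p at 0.39, miR-30d-5p at 0.41 and miR-27a-3p at 0.45. These SDs depend on the scale: log2 values of RPM of all reads gave 0.86, 0.91, 1.23, 0.83 and 1.14, and those outside the miR-122 locus 0.81, 0.72, 1.07, 0.63 and 0.42. By the mean SD of ratios these 5 stood at 1.97, 1.96, 2.03, 1.94 and 1.86.

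A list of 17 miRNAs that are used as references in other studies was set beside it, and all 17 were tested. Of these, 5 were higher with palmitic acid, 2 were lower and 10 passed in neither direction (limma), against 42.0% of all tested miRNAs higher and 14.4% lower. Their median log2 difference was 1.26 and that of all tested miRNAs 1.94. The higher ones were miR-186-5p at 5.20, miR-103-3p at 4.94, miR-101a-3p at 4.65, let-7i-5p at 3.92 and miR-26a-5p at 2.33, and the lower ones miR-423-5p at -3.38 and miR-320-3p at -1.52. These counts depend on the scale: in RPM of all reads 8 were higher and 0 lower, and outside the miR-122 locus 4 were higher and 5 lower.

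Several candidates had a smaller difference and less spread than miR-16-5p. On the deposited scale 10 of the 17 had a smaller absolute difference, 10 a smaller SD within groups and 6 a smaller mean SD of ratios. miR-24-3p differed by 0.87 (SE 0.40, 95% interval -0.05 to 1.80, adjusted p = 0.0932), with an SD within groups of 0.29 against 1.36 for miR-16-5p, the smallest mean SD of ratios among the 17 at 1.83, and at least 73 reads in every control. Its difference was 1.85 in RPM of all reads, 0.08 with libraries centred on the median tested miRNA and -0.28 outside the miR-122 locus. let-7a-5p differed by -0.23 (SE 0.42, 95% interval -1.21 to 0.75, adjusted p = 0.665), with at least 340 reads in every control, but by 0.74 in RPM of all reads and -1.38 outside the miR-122 locus. miR-92a-3p differed by 0.55 (adjusted p = 0.310), by 1.52 in RPM of all reads and by -0.60 outside that locus. An adjusted p above the threshold does not show that their levels were the same.

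**Figure D3:**
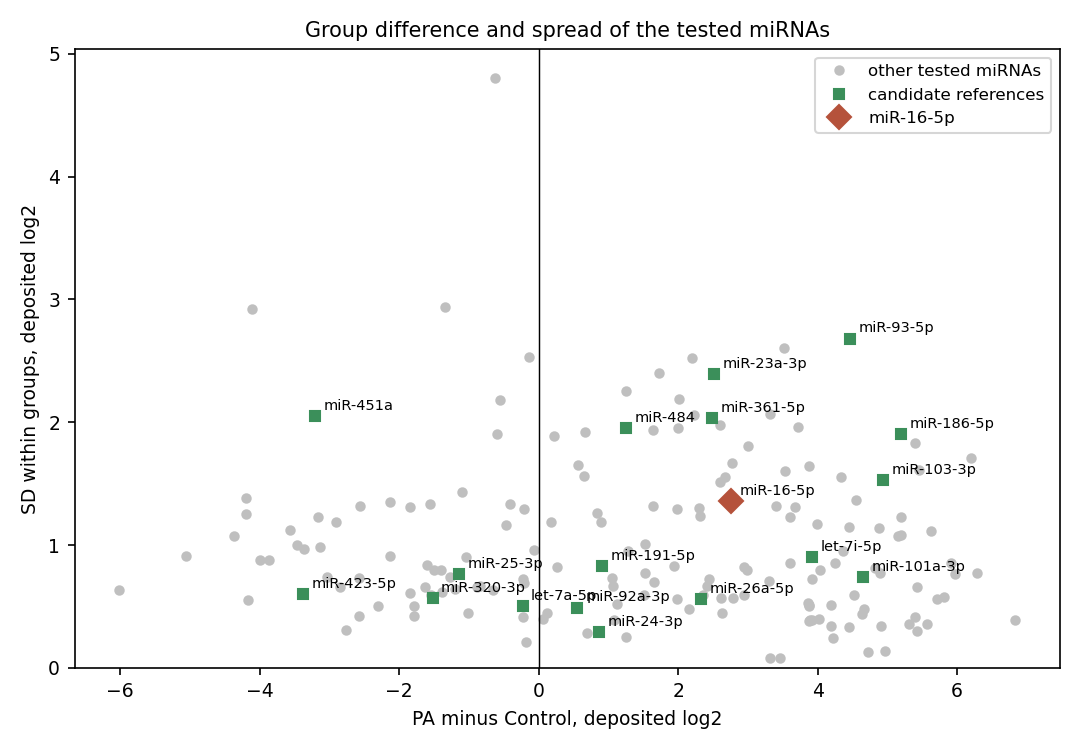
Each of the 181 tested miRNAs by its difference between palmitic acid and control libraries (x axis, deposited log2) and its SD within groups (y axis, deposited log2), with 17 candidate references as squares and miR-16-5p as a diamond. miR-16-5p lies at 2.76 and 1.36, whereas miR-24-3p lies at 0.87 and 0.29.

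Some miRNAs tracked miR-16-5p across the libraries. By the SD over 6 libraries of the log2 ratio to miR-16-5p, the 5 nearest of 180 were miR-330-5p at 0.66, miR-29b-3p at 0.74, miR-26a-5p at 0.76, miR-152-3p at 0.79 and let-7i-5p at 0.84, against a median of 1.93. On the deposited scale each of these 5 was highest in control replicate 1 and lowest in control replicate 3 among controls. miR-16-5p has the same order, so this follows from how the 5 were picked and adds no support. miR-26a-5p, read far more deeply, had 5764, 8802 and 5196 reads with palmitic acid and 303, 253 and 151 in controls. Its share of all reads was lowest in control replicate 2, at 253 of 657786 reads against 151 of 252371 in control replicate 3. miR-330-5p and miR-29b-3p had 0 reads in control replicate 3, so their nearness depends partly on what the adjustment put in place of 0 reads.

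Scaling each library to its miR-16-5p value changed which miRNAs were called. Of 180 other miRNAs 1 was higher (0.556%, miR-17-5p, named after its value was seen) and 48 were lower (26.7%) with palmitic acid relative to miR-16-5p, against 76 higher and 26 lower of 181 on the deposited scale. The deposited SD of miR-17-5p among controls was 0.09, near the 0.08 of miR-15a-5p, whose control values stand for 0 reads. Its call may thus rest on values set by the adjustment. The median of all differences became -0.93. Without control replicate 3, the library with 3 reads of miR-16-5p, 44 were higher and 56 lower. In any fit scaled to a reference, the error of that reference is shared by all miRNAs, which limma treats as independent. Intervals of such fits can thus be too narrow and their adjusted p too low, and their counts of calls are description.

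miR-30b-5p, which the series title names, had 1156, 1447 and 794 reads with palmitic acid and 5, 12 and 6 in controls. Its deposited log2 value stood 1.53, 0.93 and 1.03 above that of miR-16-5p in palmitic acid replicates 1, 2 and 3. In control replicates 1, 2 and 3 it stood at -2.57, -0.56 and 0.88 relative to miR-16-5p. The groups did not overlap, but control replicate 3, at 0.88, lay next to palmitic acid replicate 2, at 0.93. Relative to miR-16-5p the difference was 1.91 (SE 1.31, 95% interval -0.78 to 4.60, limma adjusted p = 0.280), against 4.67 (SE 0.58, adjusted p = 2.9e-04) on the deposited scale. Without control replicate 3 the scaled difference was 2.73 (adjusted p = 0.0202), and without control replicate 1 it was 1.01 (adjusted p = 0.498).

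The result for miR-30b-5p varied with the reference. Over the 17 candidates, each used alone, it ran from -0.53 to 8.05, with 15 above 0, 9 called higher, 0 called lower and 8 in neither direction by limma. Of these 8, miR-186-5p (the -0.53 end), miR-93-5p, miR-23a-3p, miR-484 and miR-361-5p had 0 reads in some control. The lowest control count was 1 for miR-103-3p, 40 for miR-101a-3p and 56 for let-7i-5p. The 9 that gave a call had at least 21 reads in every control. Relative to miR-24-3p it was 3.80 (SE 0.58, adjusted p = 5.84e-04) and relative to the mean of all 17 candidates 3.22 (SE 0.71, adjusted p = 0.00387). Relative to the mean of miR-16-5p, miR-15a-5p and miR-15b-5p it was 1.63 (SE 0.80, adjusted p = 0.106). In that mean miR-15a-5p and miR-15b-5p had 0 reads in each control, so their control part was set by the adjustment and not measured. These values share the same 6 libraries and the same miR-30b-5p reads.

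miR-21a-5p, the most-read miRNA of palmitic acid replicates 1 and 2, and miR-122-5p, the most-read miRNA of every control library, were scaled in the same way. Relative to miR-16-5p, miR-122-5p was lower by 6.31 on the log2 scale (-6.31, SE 1.52, adjusted p = 0.00301). It was called in 9 of 9 other settings, not all of them relative to miR-16-5p alone. Among these, the mean of 3 family members as reference gave -6.60 and the mean of the 17 candidates -5.01. Over the 17 candidates used alone miR-122-5p ran from -8.76 to -0.18, with 11 called lower and 6 in neither direction. The -8.76 is relative to miR-186-5p, with 0 reads in some control, and the -0.18 to miR-423-5p, with at least 146 in each. miR-21a-5p stood at 1.13 (SE 1.34, 95% interval -1.62 to 3.88, adjusted p = 0.542) relative to miR-16-5p, and at 3.89 (SE 0.47, adjusted p = 2.4e-04) on the deposited scale. Relative to miR-16-5p the miR-21a-5p groups overlapped, with 8.51, 7.46 and 7.67 in palmitic acid libraries and 4.94, 6.68 and 8.63 in controls.

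**Figure D4:**
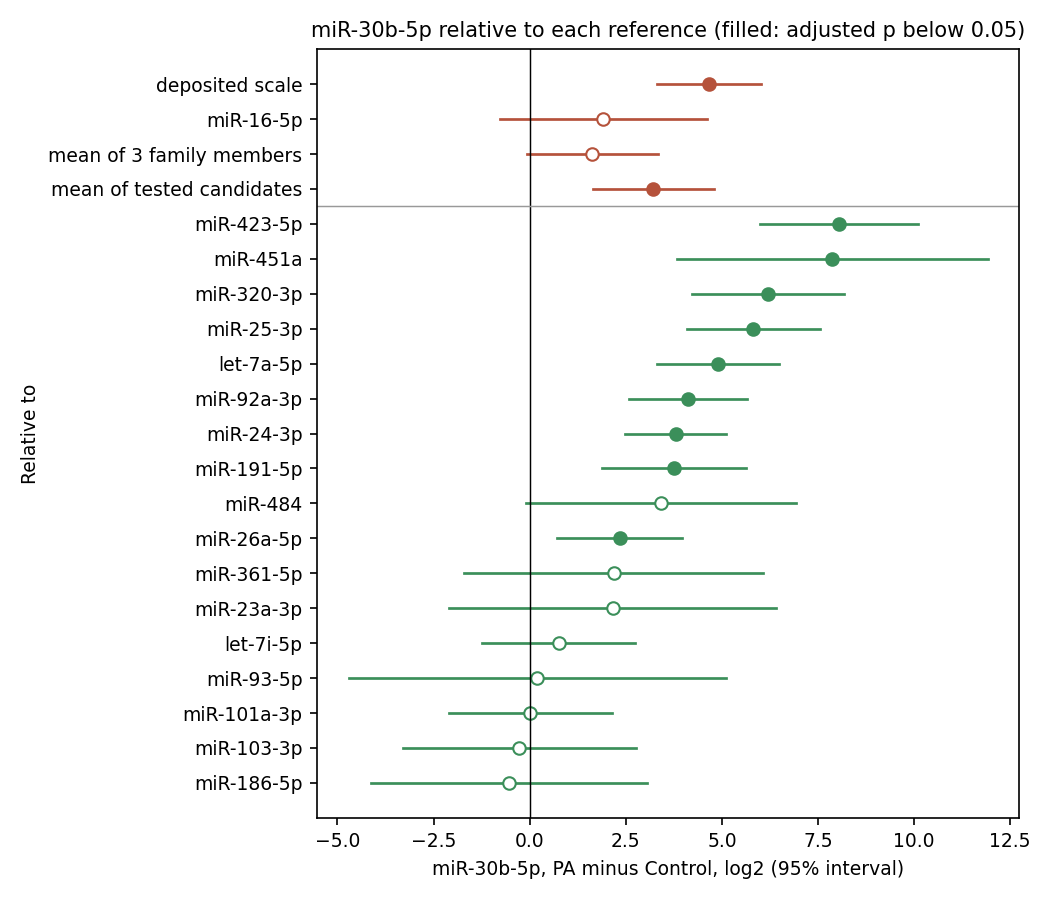
The log2 difference of miR-30b-5p between palmitic acid and control libraries (x axis, with 95% limma intervals) on the deposited scale, relative to miR-16-5p, to a mean of 3 family members, to the mean of 17 candidates and to each candidate (rows). Filled points have an adjusted p below 0.05, and relative to miR-16-5p the value is 1.91 with an interval from -0.78 to 4.60. Intervals of fits scaled to a reference can be too narrow, because the error of the reference is shared by all miRNAs.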

How the data were processed

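Small RNA was extracted with Trizol and made into libraries with a NEBNext Multiplex small RNA kit, per the labels' protocols. Bowtie2, bedtools, GRCm38 and mm10 are named per the submitters' processing notes, without versions or roles. The sources used here name no miRNA annotation and no rule for counting reads. The deposited table holds log2 values, log2(adjusted count + 1), although it is named as counts. Its values behaved as counts mapped by negative binomial quantiles onto 1 shared library size, with a dispersion of 1.39. Inverting that step gave whole reads for 99.7% of 1936 testable values (within 0.0015 log2). This step was inferred from the values, and other libraries, not analysed here, may have entered it.

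The main test was limma 3.58.1 in R 4.3.3 with a mean-variance trend and a group term on the deposited log2 values of 181 miRNAs (3 or more libraries with an adjusted count of 10 or more), with Benjamini-Hochberg adjustment over all of them at 0.05. Every adjusted p is from limma unless another test is named. A fold change on this scale understates the change of low miRNAs. RPM were computed from the recovered reads, with exact permutation tests over libraries and 95% Clopper-Pearson or Poisson intervals (Python 3.11.15, SciPy 1.17.1). A floor is 3 reads per library. Both steps were tested on simulated data. The miRNAs named are the members, their seed relatives and opposite arms, a list of candidate references, miR-30b-5p, miR-122-5p and miR-21a-5p as targets to scale, the 5 with the smallest SD and the 5 most like miR-16-5p. Members and lists were chosen with earlier results of these data known. The alternatives were other filters, pseudocounts, scalings, a replicate block and leaving out each library. Each candidate reference used alone was added after seeing the data.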

Additional observations from a re-analysis of the deposited data

How the results depend on the processing

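The miR-16-5p difference kept its direction in all 16 alternatives. The call was lost with no filter (2.76), with library totals outside the miR-122 locus (1.61), with centring on the median miRNA (1.97) and with upper-quartile scaling (2.21), and leaving out 1 library gave 1.69 to 3.54. Of the calls over all miRNAs, 76 were higher and 26 lower, against 1 and 48 scaled to miR-16-5p. Those lower numbered 60 with no filter, 10 with library totals, 46 with totals outside the miR-122 locus and 40 with centring. The median of all differences was 0.76 to 2.88 under the library scalings, -0.93 relative to miR-16-5p and -3.37 to 5.34 relative to single candidates. Relative to the mean of the candidate references, miR-30b-5p (3.22) and miR-21a-5p (2.44) became called, and without control replicate 3 so did miR-30b-5p (2.73). Leaving out 1 library gave 1.01 to 2.73 for miR-30b-5p and 0.23 to 2.07 for miR-21a-5p. Outside the miR-122 locus the untested differences of miR-15a-5p, miR-15b-5p and miR-195a-5p were 3.03, 0.48 and -4.27. On the deposited scale they were 4.29, 2.07 and -1.14. Each rests on libraries with 0 reads, whose log2 value is set by depth and by the amount added before the log. miR-195a-5p had 6 reads in all libraries together, so these differences are no bound. The cause of the differences was not tested. Same-numbered libraries had correlations of deviations of 0.21, 0.15 and 0.04, and differently numbered ones -0.18 to 0.06. Control replicate 3 correlated best with palmitic acid replicate 2 (0.06). The labels do not say whether equal numbers are pairs, these values do not settle it, and the main fit did not pair them. With a replicate block the miR-16-5p difference was 2.76 (adjusted p = 0.0134), with 83 higher and 28 lower calls. Depth limits the family most in controls, where 3 to 32 reads stand behind miR-16-5p and 0 behind miR-15a-5p and miR-15b-5p.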
